A study of Mus musculus with 16 samples.

Results

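Of 30588 PPARγ peaks in day 7 3T3-L1 adipocytes, 2876 (9.40%, exact Clopper-Pearson 95% interval 9.08 to 9.73%) lay nearly on top of a C/EBPα peak. These coincident sites were chosen by position only. The centre of the nearest C/EBPα peak on the same chromosome had to be less than 20 bp from the centre of the PPARγ peak. They made up 26.1% of the 11034 PPARγ peaks that shared at least 1 bp with a C/EBPα peak. The other 8158 shared peaks, with centres further apart, are called offset here, and the 19554 PPARγ peaks with no overlapping C/EBPα peak are called unshared.

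The cells were 3T3-L1, mouse fibroblasts that differentiate into adipocytes when induced, and chromatin was taken at day 7 of differentiation. Cells of both groups carried the same inducer history of dexamethasone, isobutylmethylxanthine and insulin. In the treated group the medium received 1 μM rosiglitazone with 0.1% DMSO, and in the control group 0.1% DMSO alone, for 1 h before harvest. Chromatin immunoprecipitation with sequencing (ChIP-seq) measured PPARγ, C/EBPα, MED1 and CBP, and the comparison asks how their occupancy at these sites differed after the drug.

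PPARγ is a nuclear receptor that binds DNA with a retinoid X receptor partner and is the target of rosiglitazone. C/EBPα is a basic leucine zipper factor that, together with PPARγ, maintains the adipocyte gene programme. MED1 is the Mediator subunit that ligand-bound nuclear receptors contact. CBP, which many activators recruit, acetylates histones. Neither binds DNA on its own sequence motif, so their tags mark coactivator at a site.

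Each factor had 1 deposited column per treatment. Treatment differences therefore have no replicate check, and the intervals below cover the counting error of tags only. Levels are tags in the peak window scaled by the authors, taken here as scaling to a common library total. A single tag was worth 0.879 and 0.831 scaled units for PPARγ in DMSO and rosiglitazone, 2.21 and 1.27 for C/EBPα, 3.49 and 7.65 for MED1, and 2.21 and 6.06 for CBP. With a common total, the MED1 and CBP libraries were 2.19 and 2.74 times deeper in DMSO than in rosiglitazone. At least 20 tags over both libraries were present at 2681 coincident sites for PPARγ, 1821 for C/EBPα, 721 for MED1 and 726 for CBP, so single sites are best measured for PPARγ.

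The partners were 2876 different C/EBPα peaks, 9.42% of the 30519 in that list, and in 100% of the pairs each peak was the nearest of the other list. The C/EBPα centre lay to the right of the PPARγ centre on the chromosome at 1393 sites, to the left at 1410 and at the same base at 73. Every one of the 39 possible offsets from -19 to 19 bp held between 58 and 91 sites, with a median of 74. No single spacing or side stood out at this resolution. The number of sites per bp of distance then fell step by step, from 73.7 below 20 bp to 60.8 at 20 to 39 bp, 44.5 in the next step and 5.05 in the last of 10 such steps. The limit of 20 bp therefore cut a continuous distribution. The 123 sites at 19 bp had a median PPARγ score of 17.5, and the 151 peaks just outside, at 20 bp, had 15.8. The score is a height per peak that the authors deposited.

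**Figure D1:**
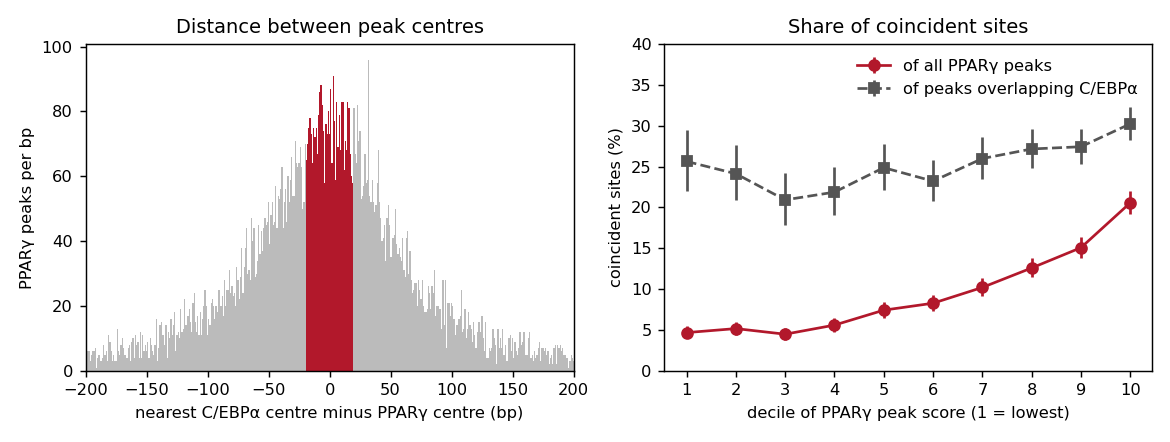
Left, PPARγ peaks per bp against the signed distance in bp from the PPARγ centre to the nearest C/EBPα centre, with coincident sites in red; right, the percentage of coincident sites by decile of PPARγ score with exact 95% intervals, of all PPARγ peaks (circles) and of peaks overlapping C/EBPα (squares). The count falls from 73.7 peaks per bp below 20 bp to 60.8 in the next step without a break, and the share of all peaks goes from 4.67% in the lowest decile to 20.6% in the highest.

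Coincident sites were more frequent among strong peaks of both lists. They were 4.67% of the lowest decile of PPARγ peaks by score and 20.6% of the highest decile. In the C/EBPα list the same shares were 3.41% and 23.1%. Most of this went with overlap as such, since among PPARγ peaks that overlap C/EBPα the coincident share was 25.6% in the lowest decile, 20.9% at its lowest in decile 3 and 30.2% in the highest. The median PPARγ score was 16.2 at coincident, 14.5 at offset and 10.3 at unshared sites, and the median C/EBPα score was 24.2 for partners against 15.3 for other C/EBPα peaks.

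In DMSO the middle coincident site had a PPARγ level of 13.2, with a lower quartile of 7.91 and an upper quartile of 22.9. Its C/EBPα level was 19.9, with quartiles of 11.04 and 37.5. Both levels describe the choice of sites, since each needed a peak of each factor. MED1 and CBP took no part in the choice. Their median levels in DMSO were 17.5 and 13.3 at coincident sites against 3.49 and 2.21 at unshared sites. No MED1 tag was found at 18.1% of coincident and 37.4% of unshared sites, and no CBP tag at 11.6% and 39.2%.

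Coactivator was thus more abundant where both factors were centred together than at PPARγ peaks lacking C/EBPα, and this held at equal PPARγ. In DMSO a coincident site carried 2.38 times (95% counting interval 2.35 to 2.41) the MED1 of an unshared site, and 1.86 times (1.83 to 1.88) within deciles of PPARγ tags. For CBP the ratio was 3.04 (3.00 to 3.09), and 2.23 (2.20 to 2.27) within the same deciles. In rosiglitazone the crude ratios were 2.35 (2.31 to 2.39) and 2.97 (2.91 to 3.03). Within deciles of the rosiglitazone PPARγ tags they were 1.36 (1.34 to 1.39) for MED1 and 1.89 (1.85 to 1.93) for CBP. Coincident and offset sites held similar coactivator at equal PPARγ, but C/EBPα was not matched. In DMSO, within deciles of PPARγ tags, coincident sites carried 1.48 times (1.46 to 1.49) the C/EBPα of offset sites. The part of exact placement apart from the C/EBPα level was not tested. Against offset sites, within deciles of the PPARγ tags of the same treatment, MED1 differed by a factor of 1.02 (1.01 to 1.04) in DMSO and 0.990 (0.973 to 1.01) in rosiglitazone. CBP was slightly higher at coincident sites in both treatments, by 1.10 (1.09 to 1.12) and 1.11 (1.09 to 1.13).

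**Figure D2:**
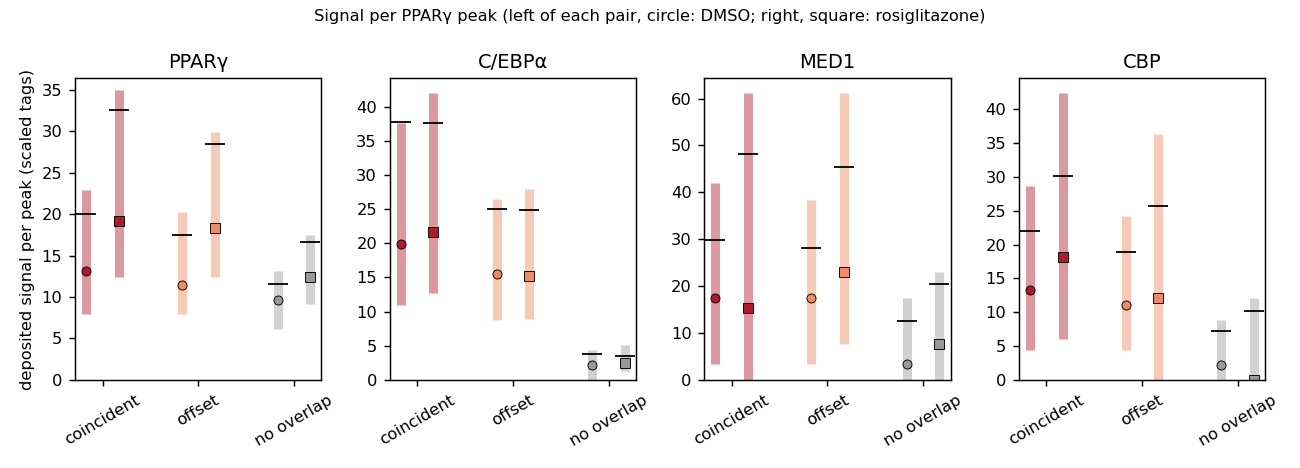
Levels of PPARγ, C/EBPα, MED1 and CBP in scaled tags at coincident, offset and unshared (no overlap) sites, in DMSO (circles) and rosiglitazone (squares), where symbols are medians, thick bars span the quartiles over sites and black dashes are means. Median MED1 and CBP in DMSO are 17.5 and 13.3 at coincident sites and 3.49 and 2.21 at unshared sites.

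After 1 h of rosiglitazone PPARγ, MED1 and CBP tags were higher over the coincident sites as a whole, and C/EBPα tags were nearly level. Mean PPARγ was 19.99 in DMSO and 32.6 in rosiglitazone, 1.63 times as much (1.61 to 1.65). Mean MED1 was 29.8 and 48.2, a ratio of 1.62 (1.59 to 1.65), and mean CBP 22.0 and 30.1, a ratio of 1.37 (1.34 to 1.40). Mean C/EBPα was 37.8 and 37.6, a ratio of 0.994 (0.983 to 1.01). The median MED1 level did not follow the mean, being 17.5 in DMSO and 15.3 in rosiglitazone, and 26.2% of sites had no MED1 tag in the shallower rosiglitazone library.

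The sizes of these ratios rest on the scaling of the libraries. The same ratios at the 19486 C/EBPα peaks that overlap no PPARγ peak were 1.47 for PPARγ, 1.03 for C/EBPα, 1.23 for MED1 and 1.11 for CBP, which are shifts of 0.55, 0.05, 0.30 and 0.14 on the log2 scale. Relative to those peaks the coincident sites had ratios of 1.11 (1.10 to 1.12) for PPARγ, 0.962 (0.952 to 0.973) for C/EBPα, 1.31 (1.29 to 1.34) for MED1 and 1.24 (1.21 to 1.26) for CBP. Over all coincident sites PPARγ, MED1 and CBP stayed above 1 under both scalings. The rescaling divides every group of sites alike, so it keeps their order and odds ratios, but a PPARγ ratio under 1.47 is then under 1.

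Site by site, PPARγ moved mainly upward under the authors' scaling. On the log2(level + 1) scale, which understates the change of low sites, 975 coincident sites (33.9%) had at least 2-fold more PPARγ in rosiglitazone, where 30% of all PPARγ peaks did. At least 2-fold less was seen at 89 sites (3.09%), against 4.43% of all peaks. Centred on the median of all PPARγ peaks, a log2 ratio of 0.50, the counts were 538 higher and 340 lower. The median log2 ratio was 0.56 at coincident sites, against a shift of 0.55 in summed tags at C/EBPα peaks without PPARγ. These are unlike measures, since no median over single sites was taken at those peaks. They do not show whether the middle coincident site was level relative to them. In summed tags the coincident sites stood at 1.11 (1.10 to 1.12) relative to those peaks. An exact binomial test of each peak's tags between the 2 columns, adjusted over all peaks, called 820 coincident sites higher (28.5%), against 20.1% of all peaks, and 47 lower (1.63%), against 1.57%. This test calls more readily where tags are many. The median PPARγ count in DMSO was 15 tags at coincident and 11 at unshared sites.

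C/EBPα was at least 2-fold higher at 507 coincident sites (17.6%), against 24.5% of all peaks, and lower at 245 (8.52%), against 18.7%. Both shares lay below those of all peaks, most of which have few C/EBPα tags. Among peaks with at least 20 C/EBPα tags the shares were close, with 289 of 1821 coincident sites (15.9%) higher against 15.4%, and 110 (6.04%) lower against 8.07%. The binomial test called 79 sites higher (2.75%) and 55 lower (1.91%), against 0.726% and 0.546% of all peaks, which hold fewer C/EBPα tags.

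MED1 was at least 2-fold higher at 927 coincident sites (32.2%), against 29.8% of all peaks, and lower at 693 (24.1%), against 22.5%. CBP was higher at 759 (26.4%), against 23.6%, and lower at 607 (21.1%), against 25.1%. These shares were near those of all peaks. Most of these calls rested on few tags. With at least 20 MED1 tags, 308 of 721 sites (42.7%) were higher and 75 (10.4%) lower, against 45.1% and 8.14% of all such peaks. With at least 20 CBP tags, 156 of 726 (21.5%) were higher and 24 (3.31%) lower, against 22.7% and 5.7%. By the binomial test MED1 was higher at 167 sites (5.81%) and lower at 24 (0.834%), against 3.18% and 0.304% of all peaks. CBP was higher at 15 (0.522%) and lower at 0, against 0.418% and 0.00327%. All peaks hold fewer tags of both coactivators, which makes calls by this test rarer. Median counts in DMSO were 5 MED1 and 6 CBP tags at coincident sites, against 1 of each at unshared sites.

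Between coincident and offset sites the ratios over all tags did not differ beyond counting error. The odds ratio of rosiglitazone to DMSO tags between them, with an exact conditional interval, was 1.00 (0.992 to 1.02) for PPARγ, 1.00 (0.987 to 1.01) for C/EBPα, 1.00 (0.981 to 1.03) for MED1 and 1.01 (0.985 to 1.03) for CBP. Each of these intervals holds 1. Within strata of equal total C/EBPα tags the C/EBPα ratio was slightly higher at coincident sites, with an odds ratio of 1.04 (1.02 to 1.05), and without high-background regions it was 1.02 (1.00 to 1.03). Against unshared sites the PPARγ ratio was larger, with an odds ratio of 1.13 (1.12 to 1.15), but within strata of equal total PPARγ tags it was 1.02 (1.01 to 1.03). The MED1 odds ratio was 0.987 (0.965 to 1.01), and 0.875 (0.854 to 0.896) within strata of equal MED1 tags. So at equal MED1, the MED1 ratio was lower at coincident than at unshared sites. For CBP the 2 values were 0.974 (0.951 to 0.998) and 0.958 (0.933 to 0.983), and for C/EBPα 1.06 (1.04 to 1.07) and 1.10 (1.06 to 1.14).

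**Figure D3:**
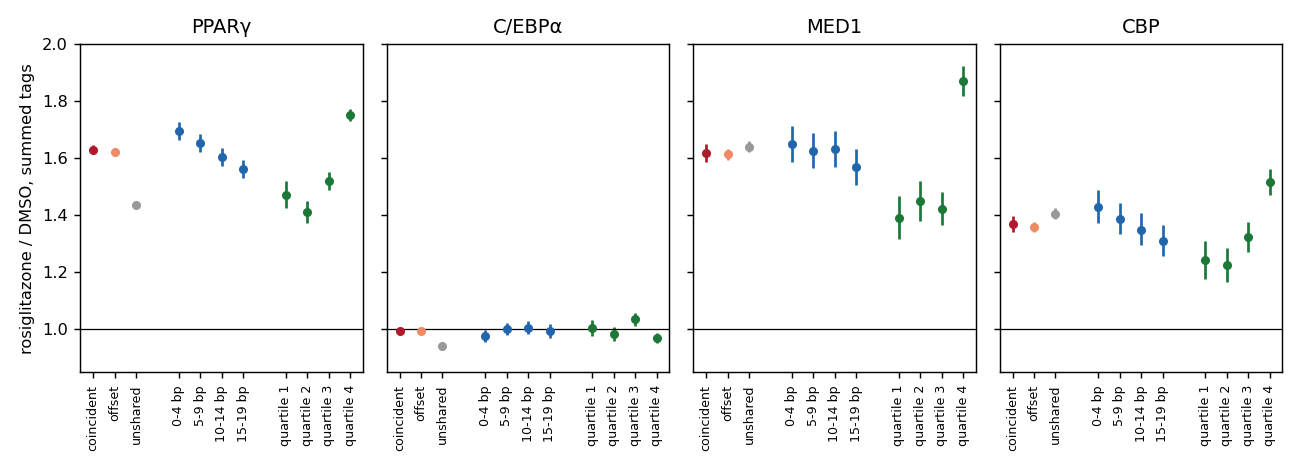
Ratio of summed tags, rosiglitazone to DMSO, for each factor, with 95% counting intervals, by class of site and, within coincident sites, by distance between centres (blue) and PPARγ score quartile (green), on an axis that starts at 0.85. Coincident and offset sites sit together for all 4 factors, at 1.63 and 1.62 for PPARγ, and the highest score quartile has the largest MED1 ratio, 1.87.

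Within the 20 bp limit, closer centres went with slightly larger ratios for PPARγ and CBP. From 0 to 4 bp (679 sites) through 5 to 9 (767) and 10 to 14 (720) to 15 to 19 bp (710), the PPARγ ratio was 1.69, 1.65, 1.60 and 1.56. The CBP ratio was 1.43, 1.39, 1.35 and 1.31. This order did not go on past the limit, since offset sites had ratios of 1.62 for PPARγ and 1.36 for CBP. The closest against the widest bin gave odds ratios of 1.08 (1.06 to 1.11) for PPARγ and 1.09 (1.03 to 1.16) for CBP. The interval for MED1, 1.05 (0.996 to 1.11), and that for C/EBPα, 0.981 (0.9504 to 1.01), included 1. The closest sites also had the highest median PPARγ score, 17.1 against 15.8 in each of the other bins, and its part in these ratios was not tested.

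Stronger PPARγ sites had larger coactivator ratios. From the lowest to the highest quartile of coincident sites by PPARγ score, 719 sites each, the MED1 ratio was 1.39, 1.45, 1.42 and 1.87. The CBP ratio was 1.24, 1.23, 1.32 and 1.52. Only the highest quartile, with scores from 28.6 to 409.4, stood clearly apart for MED1, with mean levels of 52.4 in DMSO and 98.0 in rosiglitazone. Highest against lowest quartile gave odds ratios of 1.34 (1.27 to 1.43) for MED1 and 1.22 (1.15 to 1.30) for CBP. PPARγ ratios by quartile were 1.47, 1.41, 1.52 and 1.75, but the score holds the same tags.

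Coactivator in DMSO was highest where both factors were strong. Coincident sites were split into tertiles by PPARγ score and by the score of the C/EBPα partner. Mean MED1 in DMSO was 15.1 where both scores were in the lowest tertile (451 sites) and 57.1 where both were in the highest (473 sites), and mean CBP was 10.7 and 39.6. Within each tertile of PPARγ, mean MED1 and CBP in DMSO were higher the higher the C/EBPα score. In the lowest and middle PPARγ tertiles the MED1 intervals of the weakest and middle C/EBPα partners overlapped. In the highest PPARγ tertile PPARγ was not equal, since its mean in DMSO went from 29.9 through 34.5 to 44.4 with the C/EBPα score. The ratio after rosiglitazone did not rise in step with the C/EBPα score. At weak and middle PPARγ sites the CBP ratio fell with each step of that score, through 1.42, 1.31 and 1.21 at the middle ones. The MED1 ratio fell with each step only at middle PPARγ sites, through 1.60, 1.35 and 1.33. At the weakest PPARγ sites the CBP ratio was 1.31 (1.21 to 1.41) with the weakest and 1.10 (1.00 to 1.20) with the strongest C/EBPα partners, an odds ratio of 0.840 (0.745 to 0.946). In the middle tertile of PPARγ the same contrast gave 0.846 (0.768 to 0.932), and in the highest tertile 0.936 (0.862 to 1.02). For MED1 it gave 0.877 (0.782 to 0.984), 0.828 (0.754 to 0.910) and 0.983 (0.910 to 1.06). For PPARγ it went the other way, at 1.10 (1.03 to 1.19), 1.20 (1.14 to 1.27) and 1.07 (1.03 to 1.10). In this split MED1 thus did not follow PPARγ. Strong C/EBPα went with more coactivator before the drug and, at weak and middle PPARγ sites, with a smaller coactivator ratio after it.

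**Figure D4:**
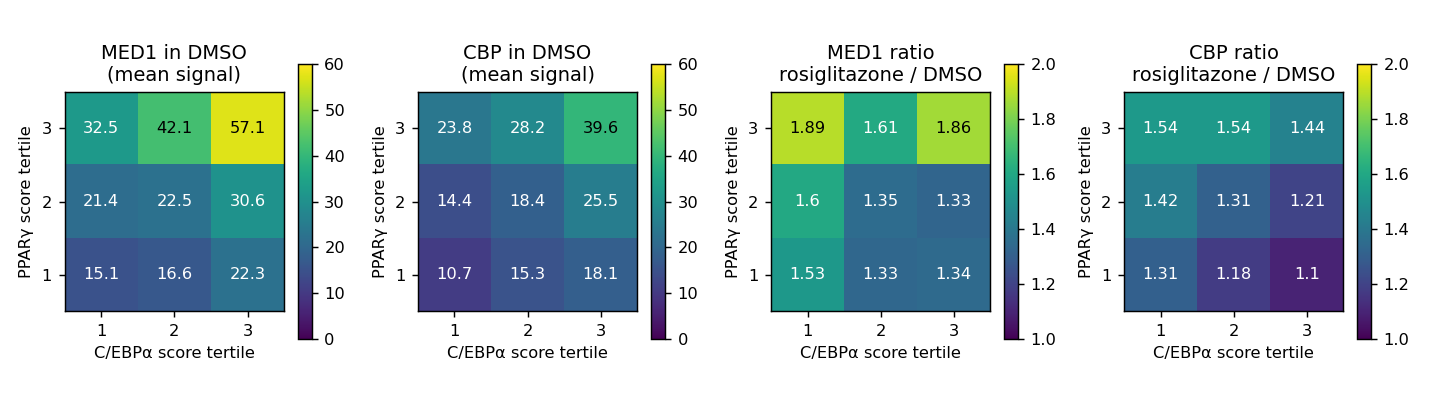
Mean level in DMSO (scaled tags, 2 left panels) and ratio of rosiglitazone to DMSO (2 right panels) for MED1 and CBP, in tertiles of coincident sites by PPARγ score (vertical) and C/EBPα partner score (horizontal), 1 being the lowest. Mean MED1 in DMSO goes from 15.1 with both scores lowest to 57.1 with both highest, while the CBP ratio is lowest, 1.10, at weak PPARγ sites with strong C/EBPα.

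The balance of the pair gave no single answer for MED1. Quartiles by the PPARγ share of PPARγ plus C/EBPα level in DMSO had MED1 ratios from 1.73 in the most C/EBPα-rich to 1.40 in the most PPARγ-rich quartile. Quartiles by the PPARγ share of the 2 peak scores ran the other way, from 1.49 to 1.84. The split by level uses DMSO tags of PPARγ and C/EBPα, which also enter their own ratios. In it the PPARγ ratio went from 2.58 to 1.31 and the C/EBPα ratio from 0.844 to 1.72. In the split by score they went from 1.74 to 1.64 and from 0.906 to 1.12. The part of this choice in the MED1 order was not tested. The CBP ratio was larger with a larger PPARγ share under both definitions, from 1.25 to 1.50 and from 1.20 to 1.54.

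With sites grouped by their own PPARγ ratio, MED1 followed the change of PPARγ, and CBP followed it less. Among coincident sites with at least 20 PPARγ tags, 911 (34.0%) had at least 2-fold more PPARγ in rosiglitazone, against 30.3% of all such peaks, while 77 (2.87%) had at least 2-fold less, against 4.03%. At the 911 sites mean MED1 was 42.8 in DMSO and 86.6 after the drug, a ratio of 2.02 (1.97 to 2.08). At the 1032 sites with a PPARγ ratio between 1 and 2, the MED1 ratio was 1.51 (1.46 to 1.56). Their PPARγ ratio of 1.42 (1.40 to 1.45) is 0.969 relative to the C/EBPα peaks without PPARγ, so PPARγ was higher there only under the authors' scaling, while MED1 was still 1.23. At the 738 sites where PPARγ was not higher, MED1 was lower, with means of 18.3 and 13.7 and a ratio of 0.746 (0.700 to 0.795). The CBP ratio was 1.44 (1.39 to 1.49), 1.36 (1.31 to 1.40) and 1.33 (1.28 to 1.39) in the same order. C/EBPα did not order with PPARγ, at 1.05, 0.859 and 1.18.

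Across single sites, the Spearman correlation between the PPARγ and the MED1 log2 ratio was 0.33 (Pearson 0.35) over 702 sites with at least 20 tags of each. PPARγ with CBP gave 0.06 (0.04) over 702 sites, and C/EBPα with MED1 -0.25 (-0.21) over 534. These describe sites that share the same libraries and their depths, and sites are not replicates.

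**Figure D5:**
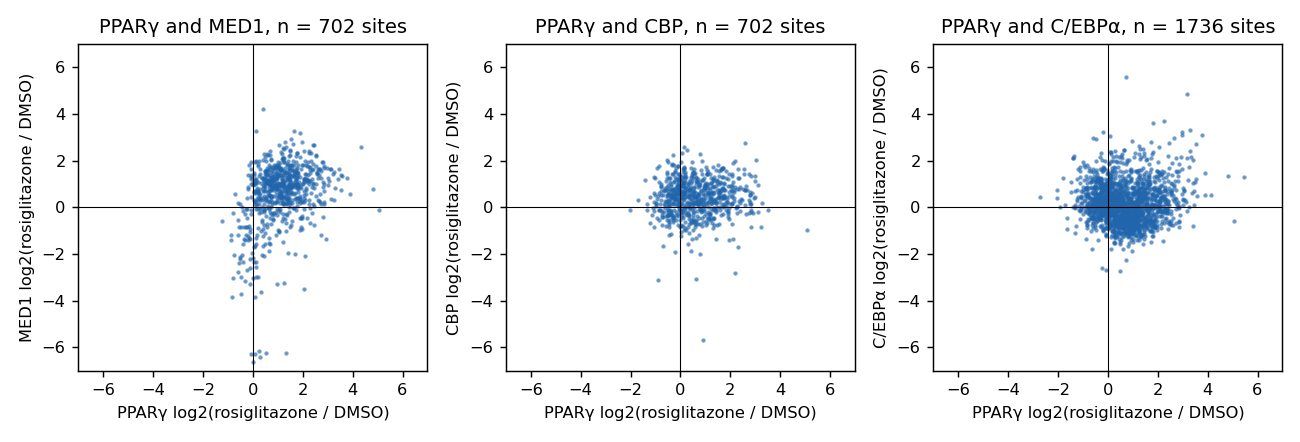
Log2 ratio, rosiglitazone to DMSO, of MED1, CBP and C/EBPα (vertical axes) against that of PPARγ (horizontal axes), each point a coincident site with at least 20 tags of both factors. MED1 slopes upward with PPARγ (Spearman correlation 0.33) with a tail of sites far below 0 where PPARγ hardly differs, and CBP shows little slope (0.06).

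Whether the sites with less MED1 after rosiglitazone are a distinct kind of site was not tested. The 75 sites with at least 2-fold less MED1 had mean MED1 of 99.6 in DMSO and 24.0 in rosiglitazone. No MED1 tag was found in rosiglitazone at 7 of them. These means restate the choice, which asked for a minimum of MED1 tags over both libraries and for the fall itself. High MED1 in DMSO was thus part of how the 75 sites were picked. They held 2138 MED1 tags in the deeper DMSO library and 235 in rosiglitazone. Their mean PPARγ was nearly level, 32.8 and 35.3, a ratio of 1.08 (1.02 to 1.13), and 12 of 75 had at least 2-fold more PPARγ and 0 at least 2-fold less. At the 308 sites with at least 2-fold more MED1 the PPARγ ratio was 2.72 (2.65 to 2.79), and 196 of them had at least 2-fold more PPARγ. CBP was higher at both sets, by 1.41 (1.31 to 1.50) where MED1 was lower and 1.48 (1.41 to 1.56) where it was higher. C/EBPα ran opposite to MED1, with ratios of 1.37 (1.28 to 1.46) and 0.827 (0.805 to 0.849). The 75 sites held more CBP in DMSO, a mean of 74.0 against 31.9 at the 308 and 39.5 at the 338 sites within 2-fold, and a lower mean C/EBPα in DMSO, 34.4 against 66.4 and 76.3. Their median C/EBPα partner score ran the other way, at 37.2 against 29.1 and 35.9. Over all coincident sites MED1 and CBP levels in DMSO went together, with a Spearman correlation of 0.59. The CBP level of the 75 sites in DMSO is therefore not independent of how they were picked. This split was made after the values were seen, and the MED1 rosiglitazone column behind it is the shallowest of the 8.

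The strongest coincident sites show how the 4 factors moved at single places (build mm9). At chr5:64717766-64717952, the highest with a score of 409.4, the PPARγ level was 224 in DMSO and 576 after the drug, a ratio of 2.57 (2.22 to 2.98). MED1 there was 318 and 842, and CBP 108 and 267. C/EBPα was 26.5 and 56.0, so all 4 factors were higher there. At chr2:91035237-91035423 PPARγ was 174 and 360 and MED1 129 and 421, while C/EBPα was 461 and 259, a ratio of 0.560 (0.460 to 0.683). There the centres were 1 bp apart, and the factors moved in opposite directions. The largest MED1 ratio among the 8 strongest was 5.21 (3.81 to 7.21), at chr16:35217050-35217236, with MED1 of 203 and 1056 and C/EBPα of 172 and 168.

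At chr7:35923645-35923831 PPARγ was 107 and 405, a ratio of 3.77 (3.09 to 4.64), and MED1 was 472 and 1171. CBP there was 86.2 and 97.0, with a ratio of 1.13 (0.587 to 2.06) that did not leave counting error. At chr9:116865440-116865626, the second strongest, PPARγ was 234 and 369, but only 2 and 1 MED1 tags and 3 and 2 CBP tags were found. So one of the strongest PPARγ sites, with its C/EBPα centre 10 bp away, held almost no coactivator tags in either treatment. Of the 719 sites in the highest PPARγ score quartile, 35 had at most 3 MED1 and CBP tags in all 4 libraries together, against 168 of the 719 in the lowest quartile.

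The extremes of each factor rested on fewer tags. At chr2:170285319-170285505 PPARγ had 52 tags in rosiglitazone but 0 in DMSO, which is at least 16.4-fold higher when the 0 is set to a floor of 3 tags. The exact 95% interval of the ratio starts at 12.9, and C/EBPα there was 13.2 and 34.4. C/EBPα at chr1:92938378-92938564 had 0 and 37 tags, at least 7.11-fold higher against the same floor and with an interval that starts at 5.50, with PPARγ of 19.4 and 32.4. C/EBPα was lowest relative to DMSO at chr6:34267434-34267620, at 39.8 and 5.09, a ratio of 0.128 (0.0316 to 0.389). These are single libraries, and the order of such sites can change with a few tags.

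MED1 had its largest ratio at chr16:24057485-24057671, with 19 tags in rosiglitazone against 2 in DMSO, a ratio of 20.8 (5.02 to 184), with PPARγ of 123 and 165. At chr2:49455812-49455998 it had 28 tags and 0, at least 4.26-fold lower against the floor and with an interval of the ratio that reaches 0.308, while PPARγ was 17.6 and 17.5 and CBP 104 and 170. CBP had its largest ratio at chr1:37006409-37006595, with levels of 15.5 and 109, where PPARγ was 14.1 and 89.0. At chr17:17761442-17761628 CBP had 23 tags and 0, at least 2.79-fold lower against the floor and with an interval that reaches 0.477, while MED1 was 126 and 245, a ratio of 1.95 (1.17 to 3.22). At both sites the factor with 0 tags was read in the shallower library of its pair.

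No MED1 or CBP tag in any library was found at 86 coincident sites (2.99%), whose median score was 11.1 and whose PPARγ ratio was 1.25 (1.16 to 1.35). The 294 richest sites, with 64 or more coactivator tags, had a median score of 42.3 and a PPARγ ratio of 2.05. Sites without detected coactivator were thus weaker in PPARγ, with a smaller PPARγ ratio.

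The sites were spread over the genome. Their share of PPARγ peaks was between 8.02% on chromosome 5 and 10.1% on chromosome 17. The PPARγ, MED1 and CBP ratios were above 1 on 20 of 20 chromosomes, and the C/EBPα ratio on 13. Relative to C/EBPα peaks without PPARγ the PPARγ ratio was above 1 on 15, and MED1 and CBP on 20. Chromosome X, with only 43 coincident sites, had the lowest PPARγ ratio, 1.29 (1.18 to 1.41), and the highest MED1 ratio, 2.06 (1.61 to 2.64). That MED1 interval holds the ratio of chromosome 11, 1.95. Another coincident site lay within 10 kb of 264 sites (9.18%), while 59.7% had any PPARγ peak within 10 kb, against 54.8% of all PPARγ peaks. Only 6 clusters of at least 3 coincident sites were found.

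A total of 10 sites lay in regions of high background, 7 on chromosome 10 between 116 and 118 Mb and 3 on chromosome 2 between 77 and 78 Mb. The one with the most C/EBPα, at chr10:117183471-117183657, had C/EBPα of 2915 in DMSO and 1384 in rosiglitazone. Without the 10 sites the C/EBPα ratio over all coincident sites was 1.01 (1.00 to 1.02) in place of 0.994, and the lowest chromosome ratio, 0.770 on chromosome 10, became 1.07 (1.00 to 1.14). The motifs, gene names and sequences of the sites were not analysed here.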

How the data were processed

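ChIP-seq tags of PPARγ, C/EBPα, MED1 and CBP were read from the authors' peak lists of PPARγ and of C/EBPα. The tools were HOMER, Bowtie, FastQC and edgeR and the build was mm9, per the submitters' processing notes. How these tools were set is not given in the sources used here. The authors deposited a scaled tag signal per peak, 1 column per factor and treatment, a peak score, and a focus ratio, a fraction used only for description. Per the file headers, PPARγ columns name no replicate. The labels give 2 PPARγ samples per treatment, and whether a column holds 1 or both is not known. Samples of input chromatin and RNA polymerase II are not analysed here. For MED1, the column taken as rosiglitazone carries the heading BRL, a code of that drug.

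All values above 0 were whole multiples of 1 step per column, at a tolerance of 0.02 steps, so tags were recovered. Centres were (start + end)/2, and windows were 186 bp (PPARγ) and 230 bp (C/EBPα). Ratios of summed tags have exact 95% Clopper-Pearson intervals. Classes were compared by exact conditional odds ratios or, in strata, by Mantel-Haenszel ratios. Tags carry no molecular identifiers, so intervals cover counting error only. With 1 column per group no count model can be fitted and no p-value is given for the treatment. An exact binomial test of each peak's tags in the 2 columns, adjusted by Benjamini-Hochberg at 0.05, served as an alternative and compares those columns, not the conditions. Folds used a pseudocount of 1, and a fold against 0 tags a floor of 3 tags in that library.

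High background meant a 1 Mb bin with at least 5 unshared peaks whose median tags of the other factor were at least 3 times the genome median, or a peak within 10 kb of one in the top 0.1% for all 4 factors. Sites were named outside such regions by rule: the 8 highest PPARγ scores, and per factor the 3 highest and 3 lowest log2 ratios among sites with at least 20 tags. The text gives some of these. The members and lists were chosen with earlier results of these data known. The splits by tertiles of both scores, by share of scores, by PPARγ or MED1 change and by coactivator tags were added after values had been seen, and the high-background site was picked in the same way. Scripts were tested on simulated data. Python 3.11.15, numpy 2.4.6, pandas 2.3.3, scipy 1.17.1, statsmodels 0.14.6, matplotlib 3.10.9 and R 4.3.3 were used.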

Additional observations from a re-analysis of the deposited data

How the results depend on the processing

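Of 111 alternatives over 37 results, 57 left the value in place, 52 moved it and 2 reversed it. One reversal was the PPARγ ratio at sites with PPARγ up to 2-fold higher, 0.969 when scaled to C/EBPα peaks without PPARγ, an alternative added for the response groups and chromosomes after values were seen. The other was MED1 per PPARγ tag in DMSO, coincident over offset, at 0.929 crude and 1.00 within deciles of PPARγ tags, where it no longer differed from 1 beyond counting error. In those deciles MED1 against unshared sites was 1.73, and CBP 1.08 against offset and 2.07 against unshared sites. The share of PPARγ peaks was 4.73% with centres under 10 bp, 13.6% under 30 bp and 10.5% among peaks at or above their list median score. PPARγ ratios were 1.67 under 10 bp, 1.66 at those scores, 1.61 in the C/EBPα window and 1.11 scaled to C/EBPα peaks without PPARγ. CBP gave 1.41 under 10 bp, 1.41 at those scores and 1.24 rescaled, MED1 1.58 in the C/EBPα window and 1.31 rescaled, and C/EBPα 0.962 rescaled and 1.01 without high background. In strata of total tags the odds ratios against offset sites were 0.991 (PPARγ), 1.04 (C/EBPα) and 0.979 (MED1), and against unshared sites 1.02, 1.10 and 0.875. With at least 100 bp of overlap they were 0.987 for C/EBPα against offset and 1.12 for PPARγ against unshared sites, and without high background 1.02 for C/EBPα against offset.

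Counts past 2-fold depended most on the rule. With at least 20 tags, higher and lower sites numbered 289 and 110 for C/EBPα, 308 and 75 for MED1, and 156 and 24 for CBP. The binomial test of the 2 columns called 79 and 55 for C/EBPα, 167 and 24 for MED1 and 15 and 0 for CBP, and 47 lower for PPARγ. A pseudocount of 5 left 39 lower for PPARγ, 149 for C/EBPα and 343 for CBP. Centring on all peaks gave 538 higher and 340 lower for PPARγ. No paired analysis was possible because the PPARγ columns carry no replicate number and the other factors have 1 sample per treatment, so no replicate could be left out either. Motifs and gene lists were not run. Depth limits MED1 and CBP most, since 1 tag in rosiglitazone is worth 7.65 and 6.06 scaled units.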
